A study of Rattus norvegicus with 12 samples.

Results

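The comparison set rat androgenetic haploid embryonic stem (ES) cells, called RahES, against round sperm cells. It used the 6 arrays titled with the RahES lines RAH-6 or RAH-2 (n = 3 each) and the 3 arrays titled round sperm cells, 9 of the 12 arrays in the series. All samples came from the inbred DA (Dark Agouti) rat strain. Each line is a cultured line grown in N2B27-2i medium, which holds inhibitors of differentiation, and was freed from the dish with trypsin. Androgenetic cells carry a genome of sperm origin only. The round sperm cells were freshly isolated, so culture and cell kind cannot be told apart in this comparison. The remaining 3 arrays, of the diploid DA5-3 ES line, entered the model to share its estimate of the spread and are given where they touch a result. The share of haploid cells in the ES lines, the age of the animals and the way the round cells were purified are not given in the sources used here.

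Spermatids are the haploid cells that meiosis leaves in the testis. They exchange histones for transition proteins and then for protamines, build an acrosome that carries the enzymes for egg binding, grow a tail around an axoneme, and use testis copies of many housekeeping enzymes, several of which stand in for genes on the X chromosome. Transcription of these genes depends in mice on the activator CREM, which binds the cAMP response element. Haploid ES cells share the haploid chromosome set of a spermatid but divide in culture, with the pluripotency genes of other naive ES cells.

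The markers followed both labels. Prm1, protamine 1, read 61903, 71856 and 61201 in the 3 round sperm samples. Its signal in the 6 RahES samples was 1.24 to 25.2, median 8.54. Sox2, a core pluripotency factor, read 5327 to 8516, median 6120.2, in RahES and 10.1, 1.3 and 9.7 in round sperm cells. The groups did not overlap for either gene, and both low groups lay below 100, the signal taken here as the floor of detection.

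The start regions of 6 genes that frame the comparison are shown first: the 3 spermatid chromatin genes, the lactate dehydrogenase pair of which the testis copy Ldhc read below 100 on all RahES arrays while the somatic copy Ldha was at similar level in both, and Sox2. Each covers 250 bases before to 50 bases after the annotated start (RefSeq, build GRCr8), on the strand of the gene. Prm1 lies at chr10:5378490-5378789 (plus strand), Tnp2 at chr10:5386485-5386784 (plus), Tnp1 at chr9:82044229-82044528 (minus), Ldhc at chr1:106522745-106523044 (plus), Ldha at chr1:106507842-106508141 (plus) and Sox2 at chr2:119464881-119465180 (plus). Capitals mark CG dinucleotides and the full cAMP response element, TGACGTCA, which reads the same on both strands and itself holds a CG.
Prm1: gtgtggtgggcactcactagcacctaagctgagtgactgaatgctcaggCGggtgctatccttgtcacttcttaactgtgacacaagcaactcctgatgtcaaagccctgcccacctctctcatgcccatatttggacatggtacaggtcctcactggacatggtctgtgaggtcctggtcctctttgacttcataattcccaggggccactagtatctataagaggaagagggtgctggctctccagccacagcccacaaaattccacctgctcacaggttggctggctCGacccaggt
Tnp1: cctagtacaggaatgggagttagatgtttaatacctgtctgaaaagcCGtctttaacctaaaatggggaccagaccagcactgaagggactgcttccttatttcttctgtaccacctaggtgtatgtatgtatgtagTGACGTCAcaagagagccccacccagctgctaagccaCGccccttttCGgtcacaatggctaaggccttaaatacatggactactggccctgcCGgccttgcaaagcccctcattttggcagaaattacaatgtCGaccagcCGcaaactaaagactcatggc
Tnp2: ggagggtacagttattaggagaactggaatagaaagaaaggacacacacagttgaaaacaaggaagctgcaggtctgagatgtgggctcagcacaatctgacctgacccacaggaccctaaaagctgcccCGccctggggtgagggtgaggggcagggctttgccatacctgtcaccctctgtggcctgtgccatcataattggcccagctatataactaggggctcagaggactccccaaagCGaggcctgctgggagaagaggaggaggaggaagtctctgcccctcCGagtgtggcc
Ldhc: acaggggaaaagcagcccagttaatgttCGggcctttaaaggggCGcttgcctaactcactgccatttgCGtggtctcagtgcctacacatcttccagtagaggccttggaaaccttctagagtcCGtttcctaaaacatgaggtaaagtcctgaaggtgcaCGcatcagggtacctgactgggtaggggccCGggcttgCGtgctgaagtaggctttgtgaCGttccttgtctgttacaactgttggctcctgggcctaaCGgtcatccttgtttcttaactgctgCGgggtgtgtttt
Ldha: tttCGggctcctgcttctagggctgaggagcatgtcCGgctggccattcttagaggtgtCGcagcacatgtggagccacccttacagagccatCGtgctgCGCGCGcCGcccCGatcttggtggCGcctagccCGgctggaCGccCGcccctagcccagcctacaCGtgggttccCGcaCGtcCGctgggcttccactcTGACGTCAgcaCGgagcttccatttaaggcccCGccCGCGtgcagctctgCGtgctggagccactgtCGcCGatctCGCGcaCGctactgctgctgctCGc
Sox2: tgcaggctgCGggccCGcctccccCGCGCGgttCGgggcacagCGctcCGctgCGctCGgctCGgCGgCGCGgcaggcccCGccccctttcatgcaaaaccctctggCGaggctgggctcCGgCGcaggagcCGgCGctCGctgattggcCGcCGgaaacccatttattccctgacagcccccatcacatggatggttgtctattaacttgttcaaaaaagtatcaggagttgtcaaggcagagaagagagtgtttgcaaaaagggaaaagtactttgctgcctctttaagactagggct
The 3 spermatid chromatin genes held 2 (Prm1), 7 (Tnp1) and 3 (Tnp2) CG dinucleotides, against 29 for Ldha and 23 for Sox2. Ldhc held 10. The element TGACGTCA stood at position -113 of Tnp1 and at position -51 of Ldha, counted to its first base from the annotated start, and these letters were not found in the other 4 windows. It was present in 1.83% of all 33469 windows of the same length.

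The arrays were Affymetrix Rat Genome 230 2.0 arrays, and values are MAS5 signals, the linear brightness summary of a probe set, on a scale where the trimmed mean of each array is 500. Of 14217 genes named by a probe set, 10538 reached a signal of 100 on at least 3 arrays and were tested. Signals correlated at 0.984 to 0.992 between arrays of the same group and at 0.202 to 0.212 between RahES and round sperm arrays (log2 scale). The ratio of 3' to 5' Gapdh control signal, a sign of RNA integrity, was 1.11 to 1.30 in RahES and 1.78 to 2.48 in round sperm samples. The same ratio for actin was 2.94 to 4.93 and 3.62 to 4.72, which overlap. The part of RNA integrity in the results was not tested. Signals of at least 100 made up 47.2% to 49.0% of probe sets in RahES and 40.2% to 42.4% in round sperm samples. In bulk samples, fewer cells of a type and less RNA per cell cannot be told apart. The labels call the samples biological replicates without naming animals or cultures. The p-values, SE and confidence intervals measure the spread between arrays of the same group. The difference between RAH-6 and RAH-2 is not part of that spread.

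Most tested genes differed between the haploid cell kinds. A total of 72.1% of tested genes were called, in either direction. In RahES 4552 genes were higher (43.2% of those tested) and 3044 were lower (28.9%), at an adjusted p below 0.05 (limma, Benjamini-Hochberg over all tested genes) and a log2 difference of at least 1. The median difference, RahES minus round sperm cells, was 0.59 on the log2 scale. This centre depends on the scale of the arrays: it was 0.25 after quantile normalization, with 4056 higher and 3390 lower, and -0.08 after centring each array on its median, with 3568 higher and 3913 lower. Of all called genes, 59.9%, 54.5% and 47.7% in turn were the higher ones. The arrays of the groups did not overlap for 88.7% of tested genes. For 3079 of the called genes the low group lay below 100 on all its arrays, so that only a lower bound of the fold can be given, written below as at least N-fold: the geometric mean of the bright group over 100.

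**Figure D1:**
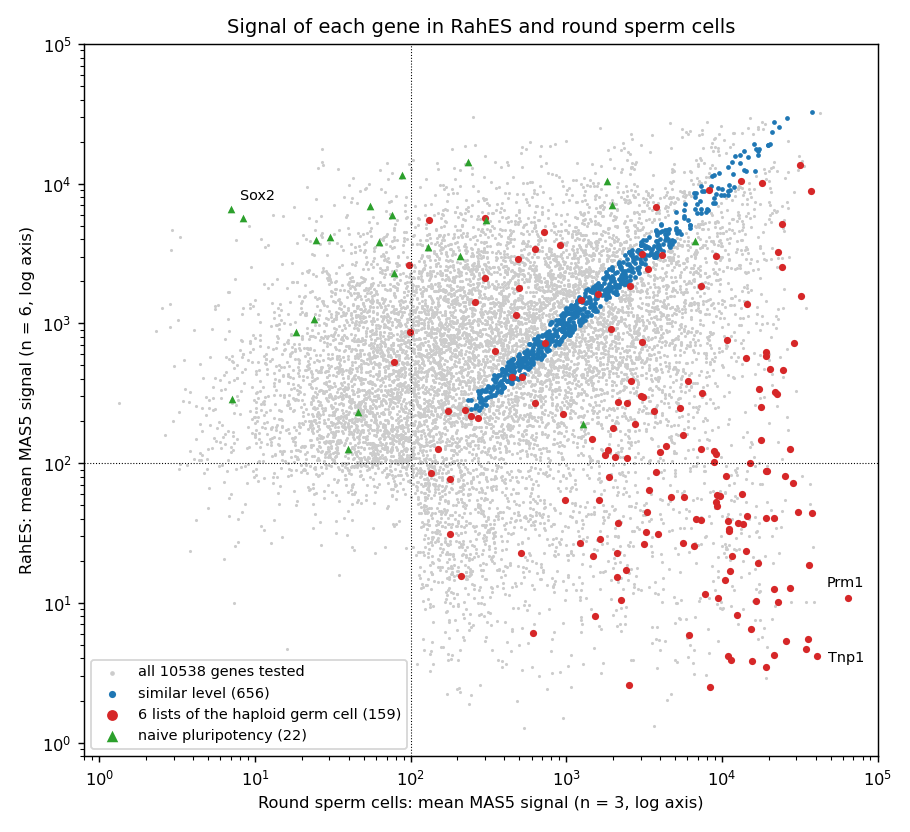
Mean MAS5 signal of each tested gene in round sperm cells (horizontal, n = 3) and in RahES (vertical, n = 6), both on log axes, with dotted lines at a signal of 100. Red points are the 159 tested genes of 6 lists of the haploid germ cell, most of them at the lower right, green triangles the 22 naive pluripotency genes, most of them at the upper left, and blue points the 656 genes at similar level, which lie on the diagonal.

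The chromatin genes of the spermatid were far higher in round sperm cells. Tnp1, a transition protein, read 38757, 42059.9 and 42216 in round sperm samples and 1.05 to 13.2, median 2.88, in RahES. Tnp2, the other transition protein, read 33909, 37332 and 36159 against 2.5 to 13.5, median 4.54. All 9 arrays followed their group, and every RahES value lay in the range where the array gives no reliable level. The fitted differences, which depend on signals below the floor (log2, ± SE), were -11.33 ± 0.33 for Prm1, -11.02 ± 0.18 for Tnp1 and -10.72 ± 0.22 for Tnp2, with adjusted p of 1.22e-13, 3.04e-16 and 2.83e-15 (limma). As bounds, round sperm cells were at least 648-fold higher for Prm1, at least 409.8-fold for Tnp1 and at least 358-fold for Tnp2.

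Of the 18 tested members of the sperm chromatin list, 12 were lower in RahES and 3 were higher, with a median difference of -5.69. Prm2, the second protamine, averaged 19296 ± 1220.3 in round sperm samples (SD, n = 3) and 40.6 ± 26.8 in RahES (SD, n = 6). Hils1, a spermatid linker histone, averaged 27246 against 12.7, and Hmgb4, a testis protein of the HMG-box family, 21755 against 12.6. These genes had no RahES array at 100. Camk4, a kinase that phosphorylates protamine 2 in mice, kept a clear signal in RahES, 531 to 1023, median 774, against 10165, 10863 and 11319.6. Its difference was -3.83 ± 0.08 and the groups did not overlap. The 3 members that were higher in RahES act on chromatin outside the testis as well: Rnf8, a ubiquitin ligase of the DNA damage response, at 2129 against 302, Pygo2, a reader of histone methylation, at 866 against 98.7, and Jmjd1c, at 1155 against 473. Epc1, a subunit of the TIP60 acetyltransferase complex, and Uhrf2, a relative of the DNA methylation factor Uhrf1, were at similar level, 723 against 734 and 1611 against 1609.8.

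**Figure D2:**
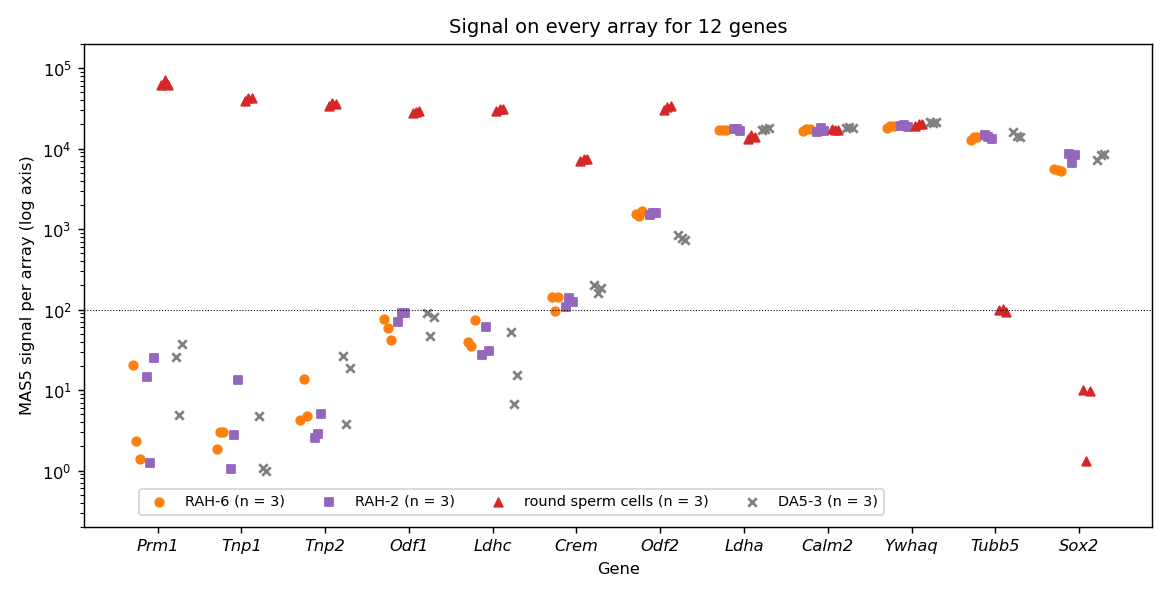
MAS5 signal (log axis) of 12 genes on each of the 12 arrays, with the diploid line DA5-3 for reference and a dotted line at 100. Prm1, Tnp1, Tnp2, Odf1 and Ldhc lie below 100 on all RahES arrays and near the top of the scale on all round sperm arrays, Ldha, Calm2 and Ywhaq lie together in both, and Tubb5 and Sox2 show the opposite order.

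All 28 tested genes of the acrosome and egg binding list were lower in RahES, with a median difference of -6.44. Crisp2, a secretory protein of the acrosome and tail, read 32954, 35511 and 34951 in round sperm samples and 1.00 to 21.4, median 1.00, in RahES, at least 345-fold apart. Adam3a, a surface protein whose mouse relative Adam3 is needed for sperm to reach the egg, read 25064, 26086 and 26811 against 1.94 to 11.7, median 4.78, at least 259.8-fold apart. The groups did not overlap for any of the 28 genes, as for 88.7% of all tested genes. Acr, the protease acrosin, read 2138, 2282 and 2281 against 1.66 to 39.7, median 5.23, at least 22.3-fold apart. Spam1, a hyaluronidase, and Zpbp, a zona pellucida binding protein, averaged 10408 and 14331 in round sperm samples against 14.5 and 23.4 in RahES. The difference was smallest for Tex101, a germ cell surface protein, at -3.13 ± 0.13, and for Gkap1, an anchor of the cGMP kinase, at -3.26 ± 0.065. Gkap1 read 2223 to 2832, median 2499, in RahES, the highest RahES level of the list, below the lowest round sperm value of 22922. Spa17 and Ccdc136, at 461 and 337 in RahES, also stayed above 100 on all 6 arrays.

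In the sperm tail list 45 of 50 tested genes were lower in RahES and the median difference was -6.02. Smcp, a protein of the mitochondrial capsule, read 38891, 34134 and 35031 against 5.89 to 31.3, median 19.3, in RahES. Akap4, the main fibrous sheath protein and X-linked, read 18160.5, 18947 and 20206 against 1.32 to 6.07, median 3.14. Odf1, of the outer dense fibres, read 27936, 28256 and 29545 against 42.0 to 91.5, median 73.4. The bounds were at least 359.6-fold, 191-fold and 286-fold, and the groups were fully apart for each. Odf2, which the centrosome of dividing cells also uses, kept a signal of 1460.3 to 1675, median 1562, in RahES against 30044, 32852 and 33980.5, a difference of -4.36 ± 0.059. A second Odf2 probe set read the other way, 2932 in RahES and 1767 in round sperm cells. Among the axonemal tektins, Tekt1, Tekt3 and Tekt4 averaged 88.0, 3.93 and 6.52 in RahES, while Tekt2 read 558 to 687, median 617. Tekt2 remained far below its round sperm values of 18759, 19776 and 18627. The 5 genes that were not lower serve other cells too. Ift20, an intraflagellar transport subunit, differed by -0.45 ± 0.04 and Slirp, a mitochondrial RNA-binding protein, by -0.39 ± 0.097. Septin4 differed by -0.52 ± 0.053 as the mean of the lines, with RAH-6 at -0.15 and RAH-2 at -0.89 from round sperm cells. Lrrc8b differed by 0.39 ± 0.12, and Pgs1, an enzyme of cardiolipin synthesis, was at similar level at 3150.4 against 3050.4.

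Enzymes and transporters of the testis followed, with 17 of 21 tested genes lower and a median of -4.63. Gapdhs, the spermatid glyceraldehyde phosphate dehydrogenase, read 24231, 26435 and 25471 in round sperm samples and 20.2 to 125, median 78.6, in RahES. Ldhc read 29629, 31139 and 31315 against 27.1 to 74.7, median 37.6, at least 307-fold apart. Adcy10, the soluble adenylyl cyclase of sperm motility, averaged 9778 against 57.8, and Atp1a4, a sodium pump subunit of sperm, 9476 against 10.8. Genes of this list with a clear RahES signal were the peroxidase Gpx4 (8853 against 37548), hexokinase Hk1 (1387 against 14496) and the oxidase subunit Cox7b2 (5161 against 24217). Those genes fell by 2.08 ± 0.041, 3.38 ± 0.069 and 2.23 ± 0.049 on the log2 scale. The glucose transporter Slc2a3 (10460.4 against 13198) and the peroxiredoxin Prdx4 (9051 against 8299) were at similar level.

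Somatic genes and their testis partners were set side by side for 18 pairs with both copies measured. In 12 pairs the somatic copy was higher in RahES and the testis copy was higher in round sperm cells. Pdha1, the X-linked pyruvate dehydrogenase subunit, read 14407 to 15111, median 14799, in RahES and 128, 104 and 79.9 in round sperm samples. Its retrogene Pdha2 read 326 to 442, median 394, against 2725, 2411 and 2680.0. The differences were 6.96 ± 0.088 and -2.70 ± 0.13. Cox7b and Cox7b2, subunits of cytochrome c oxidase, differed by 6.28 ± 0.069 and -2.23 ± 0.049, and the centrin Cetn2 by 5.86 ± 0.13, while its partner Cetn1 was at least 165-fold higher in round sperm cells. The cyclin Ccna2 differed by 5.33 ± 0.11 and its partner Ccna1 was at least 82.4-fold higher in round sperm cells, and the cohesin subunits Stag2 and Stag3 by 5.22 ± 0.096 and -3.39 ± 0.067.

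Of the 18 somatic copies 13 were higher in RahES and 1 was lower. Of the other 4, Calr did not pass the adjusted p, and Ldha, Capza1 and Papola passed it with a difference below 1. Of the 17 testis copies 16 were lower and 1 was higher. The exceptions were Tbp, the TATA-binding protein, lower in RahES together with its partner Tbpl1 (-2.37 ± 0.064 and -2.81 ± 0.074), and Cstf2t, the testis form of a cleavage factor, higher in RahES together with Cstf2 (2.53 ± 0.051 and 2.42 ± 0.11). Ldha, which makes lactate dehydrogenase in most tissues, read 13351, 14673 and 13781 in round sperm samples and 16695 to 17651, median 17149, in RahES, within the limit for similar level at 0.30 ± 0.036. The actin capping gene Capza1 and the poly(A) polymerase gene Papola differed by -0.68 ± 0.09 and -0.77 ± 0.049 and were not called. A pair of dimmer Papola sets differed by -1.57 and -1.37. After median centring Capza1 (-1.35) and Papola (-1.44) were called lower. The testis partners Capza3 and Papolb were at least 216-fold and at least 110.5-fold higher in round sperm cells. The calcineurin subunit Ppp3r1 also depends on the probe set: the brighter set differed by 1.64 ± 0.062 and the other by -2.48.

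**Figure D3:**
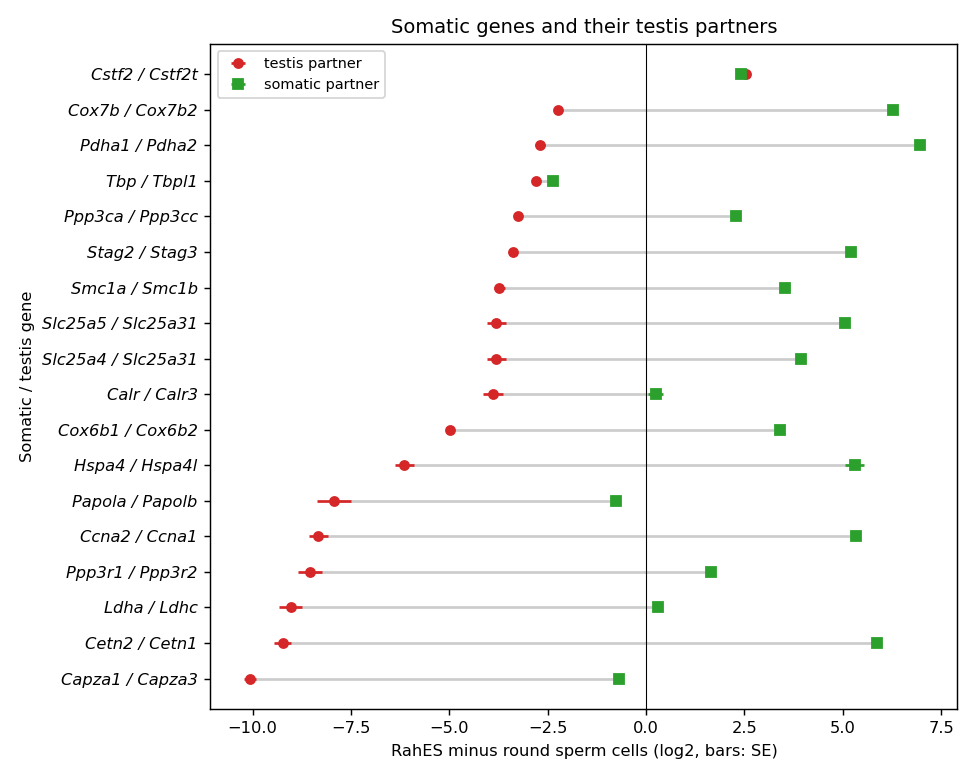
Log2 difference, RahES minus round sperm cells, of the somatic gene (green squares) and the testis partner (red circles) of 18 pairs, with bars for the SE. The somatic gene lies to the right of its partner, except for Cstf2 and Cstf2t, which lie close together with both positive. Both are negative for Tbp and Tbpl1, for Capza1 and Capza3, and for Papola and Papolb.

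Kinases, phosphatases and regulators of the spermatid were mixed. Among 19 tested kinases and phosphatases 12 were lower and 5 were higher in RahES, with a median of -2.03. Dusp13b, a testis phosphatase, averaged 6175 in round sperm samples and 5.89 in RahES, and the testis calcineurin subunit Ppp3cc 3034 against 304. Ppp1cc, the protein phosphatase 1 gene whose testis splice form is needed in sperm, kept 13635 in RahES against 31823. The probe sets of Prkar2a, a regulatory subunit of protein kinase A, disagreed: the set used here averaged 2623 in RahES and 97.3 in round sperm cells, and another averaged 45.8 and 3813.

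Of 25 tested regulators of transcription and RNA, 14 were lower and 5 were higher, with a median of -1.60. Crem, the activator of spermatid genes, read 6997, 7534 and 7447 in round sperm samples and 96.0 to 145, median 131, in RahES, a difference of -5.70 ± 0.13. The other 3 Crem probe sets above the filter were also lower, between -3.79 and -2.66. Rfx2, an activator of ciliary genes, averaged 9229 against 49.1, and Tdrd7, a chromatoid body protein, 20375 against 473. The RNA-binding genes Elavl1 (5542 in RahES against 131) and Celf1 (5704 against 299) were higher in RahES. Both serve many somatic cells, and a pair of dimmer Celf1 probe sets read -0.26 and -0.55.

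Across the 6 lists, 294 genes were listed, 164 were on the array and 159 were tested. Of these 126 were lower in RahES (79.2%, against 28.9% of all tested genes), 13 were higher and 20 were not called, with a median of -5.29 against 0.59. The other listed genes were not on the array under a single-gene probe set or did not pass the filter, so the counts do not cover the lists in full, and members seen in round sperm samples alone passed the filter through that group. With genes below 100 in a group set to their bound, the list medians were -5.31 for chromatin, -6.05 for the acrosome, -5.29 for the tail and -4.39 for isoenzymes. Among the lower genes, 69 were below 100 on all 6 RahES arrays and 39 were at 100 or more on all 6. Outside the lists, Fabp9, a fatty acid binding protein of the testis (at least 387-fold), Fam229b (at least 346-fold) and the acyltransferase gene Plaat5 (at least 278-fold) were also higher in round sperm cells and below 100 on all RahES arrays. Among the listed genes with a RahES signal were Ppp1cc, Gpx4, Cox7b2, the TBP-related factor Tbpl1 (3263), Gkap1, the ciliary gene Cfap20 (1847) and Odf2.

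The 2 RahES lines gave near-equal readings of this programme. RAH-6 against round sperm cells gave 43.7% of all tested genes higher and 28.6% lower, and RAH-2 gave 43.3% and 29.2%, against the same 3 round sperm arrays. Between the lines 0.693% of tested genes were called, and 2 of the 159 listed genes were among them. H2ac1, a testis histone H2A, averaged 111 in RAH-6 and 42.5 in RAH-2 (adjusted p = 0.0183, limma). Slc16a7, a monocarboxylate carrier, was also higher in RAH-6 (adjusted p = 0.0473, limma). The RAH-2 mean of H2ac1 and all RahES values of Slc16a7 lay below 100, so neither difference has a reliable size.

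Some genes of the programme read higher in RahES than in the diploid ES line DA5-3. Of the 159 genes, 12 were higher in RahES than in DA5-3 (7.55%, against 3.62% of all tested genes) and none was called lower (against 2.76%; limma, 24 genes had an unadjusted p below 0.05 in that direction and 46 in the other). The RahES arrays enter both this comparison and that with round sperm cells. Txnrd3, a thioredoxin reductase of the testis, averaged 563 ± 26.4 in RahES and 155 ± 15.5 in DA5-3 (SD, n = 6 and 3), against 14314 in round sperm cells. Tekt2 averaged 619.6, 233.6 and 19054 in the same order, and Spata6, a protein of the sperm connecting piece, 724, 310.4 and 28996. In each of these genes the RahES arrays lay above the DA5-3 mean and far below the round sperm arrays. The differences from DA5-3 were 1.77 ± 0.07, 1.35 ± 0.078 and 1.19 ± 0.08 (log2). Pdha2 (1.80 ± 0.13), Septin4 (1.61 ± 0.053) and Gkap1 (1.22 ± 0.065) were also called. For Adam32 (253 in RahES, 63.3 in DA5-3), Spaca9 (247 and 63.4), Taf7l (224 and 79.4) and Efhc2 (110.1 and 36.6) the DA5-3 mean lay below 100, and for Drc1 and Slc16a7 both ES means did, so no size is given for these 6 genes. DA5-3 is a separate line, so ploidy, origin and line cannot be told apart.

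**Figure D4:**
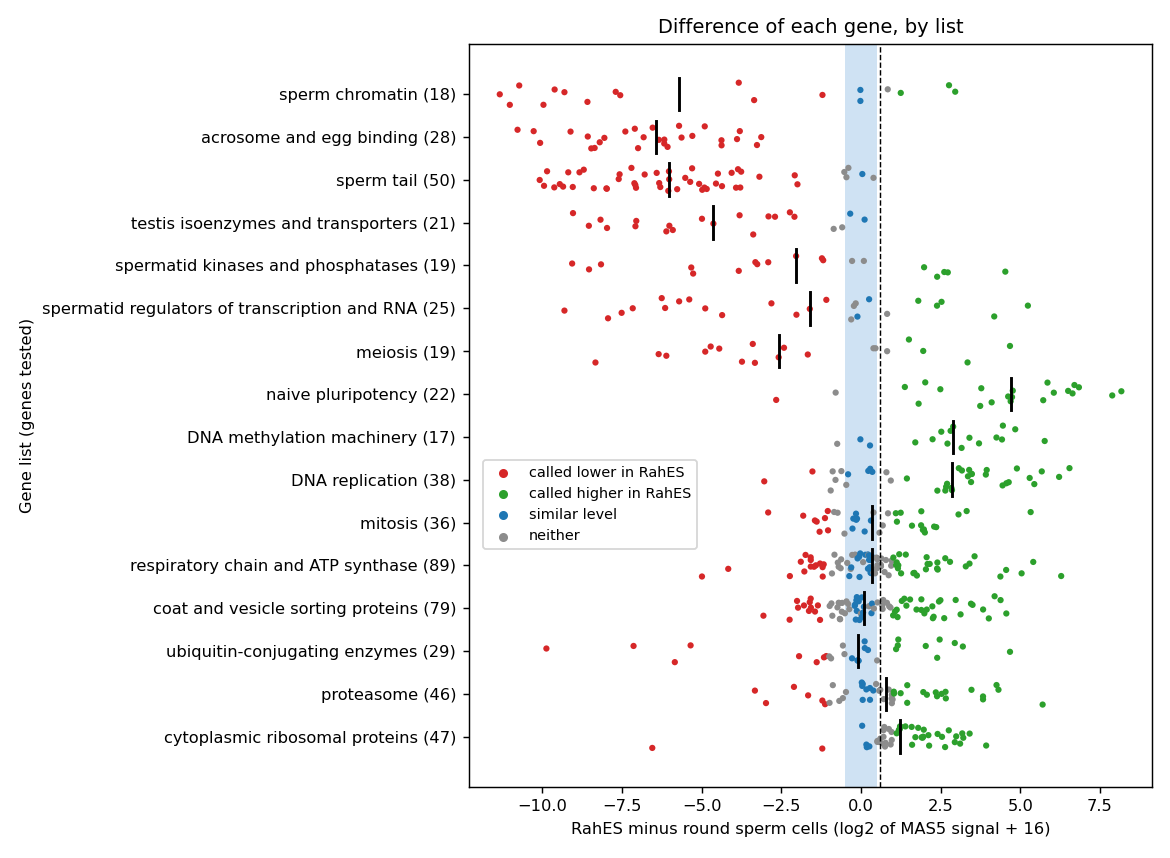
Log2 difference, RahES minus round sperm cells, of each tested gene in 16 lists, with the number tested in parentheses. Black bars are medians, the dashed line is the median of all tested genes (0.59) and the blue band spans the limit of 0.5 either way; points are spread vertically at random. The first 4 lists lie almost wholly to the left, naive pluripotency to the right, and the respiratory chain, coat and ubiquitin-conjugating lists around the band.

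Genes of meiosis, the stage before the spermatid, were also present in the round sperm samples. Of 19 tested, 12 were lower in RahES (63.2%, against 28.9% of all tested genes) and 4 were higher (21.1%, against 43.2%). The median was -2.58, and the summed signal of the list was 18361 to 19626 in RahES and 81065 to 88851 in round sperm samples. Sycp3, of the synaptonemal complex, read 17199, 14971 and 13913 in round sperm samples and 2345 to 3052, median 2992, in RahES. The cohesin subunit Stag3 read 9708, 10392 and 9992 against 826 to 1095, median 935, and the meiotic heat shock protein Hspa2 25359.7, 21560.1 and 20824 against 237 to 348, median 322. All 3 stayed above 100 in RahES and were far higher in round sperm cells. Spo11, which makes the meiotic DNA breaks, averaged 409 against 3.64. Higher in RahES were Trip13 (2253 against 73.9), Mnd1 (2175 against 203), Tex15 (6307 against 1610.3) and Brca2 (845 against 288). Trip13 and Brca2 also act in somatic mitosis and repair.

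Markers of other testis cells were read in the round sperm samples, and part of them lay below 100 there. The counts of called markers here and in the next paragraph stand beside 43.2% higher and 28.9% lower among all tested genes. Of 12 tested blood and macrophage markers, 10 were lower in RahES, and the summed signal of the list was 672 to 959.7 in RahES and 16212 to 17346 in round sperm samples. Most of that sum came from 1 probe set of Aif1, counted here as a macrophage marker, at 12639, while a second Aif1 set read 110.3. The sum therefore rests mainly on 1 gene and is not a measure of macrophage content. Aif1 was followed by the globin Hbb at 1480.2, the lysozyme Lyz2 at 1111 and C1qa at 333. Of 12 Sertoli cell markers 5 were lower in RahES and 3 were higher, with sums of 26154 to 30836 in RahES and 4979 to 5292 in round sperm samples, the RahES sum made mainly of Rhox5 (13695) and Ctsl (9660.3). Cldn11, of the Sertoli cell junction, averaged 407 and Wt1 104 in round sperm samples.

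Of 6 Leydig cell markers 3 were lower in RahES and 2 were higher, with sums of 2694 to 2899 in RahES and 4649 to 4991 in round sperm samples. The steroid enzymes Hsd3b1 and Cyp17a1 averaged 182 and 132 in round sperm samples and 3.97 and 3.25 in RahES. These enzymes made up a small part of the round sperm sum, which is not a measure of Leydig cell content. Of 11 peritubular and fibroblast markers 9 were higher in RahES and Myh11, smooth muscle myosin, was lower (85.3 against 1039), with sums of 14688 to 19317 in RahES and 1633 to 1689.9 in round sperm samples. Of 4 endothelial markers 3 were higher in RahES, with sums of 895 to 1173 in RahES and 297 to 425 in round sperm samples, and 3 of the 4 were below 100 on all round sperm arrays, as were 7 of the 11 peritubular and fibroblast markers. Of 9 spermatogonial markers 5 were higher in RahES and 4 lower, with log2 differences from -4.10 to 6.75. Their sums were 8752 to 10067 in RahES and 2364 to 2590.2 in round sperm samples. No marker read exactly 0. The part of these cells in the round sperm results was not tested.

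The X chromosome stood apart from the autosomes. Spermatids keep most X-linked genes silent after meiosis. Of 323 tested X-linked genes 248 were higher in RahES (76.8%) and 30 were lower (9.29%), against 42.1% and 29.5% of autosomal genes. No autosome exceeded 48.1% higher. The median difference was 2.91 on the X and 0.52 on the autosomes, and the X median was 2.58 after quantile normalization and 2.24 after median centring. On all 3 round sperm arrays 47.1% of X-linked genes lay below 100, against 19.9% of autosomal genes. In RahES the corresponding shares were 6.81% and 11.8%.

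Rhox5, an X-linked homeobox gene, read 13096 to 14599.9, median 13576, in RahES and 43.3, 10.6 and 28.4 in round sperm samples. The amino acid transporter Slc7a3 read 12098 to 13434, median 12849, against 27.2, 58.1 and 17.2, and Pgk1, of glycolysis, 28832 to 32408, median 30025, against 252, 298 and 203. The groups were fully apart, with bounds of at least 137-fold for Rhox5 and at least 128-fold for Slc7a3 and a difference of 6.84 ± 0.084 for Pgk1. Other X-linked genes with large differences were Eif1ax (9940.0 against 54.3), Bex3 (10828 against 71.0) and Cul4b (7858 against 41.9). The 30 X-linked genes that were lower in RahES included, beside Akap4, the H2A-like histones H2ap (4.1 against 6055) and H2al2l (135 against 11498), the anchoring protein Akap14 (37.4 against 2146), the E3 ligase Rlim (551 against 3786) and the tetraspanin Tspan6 (5519 against 25171).

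Taf7l, an X-linked TFIID subunit of germ cells, read 1037, 944 and 874 in round sperm samples and 181 to 276, median 219.8, in RahES, -2.02 ± 0.11. Xist, the RNA that silences an X chromosome in female cells, was low throughout, at 47.5 to 142, median 84.7, in RahES and 17.3, 5.1 and 27.4 in round sperm samples. Of the 3 tested Y-linked genes, Eif2s3y averaged 2616 in round sperm samples and 3.92 in RahES, and Tspy1, a Y-linked germ cell gene, 747 against 2.43. Uty read the opposite way, 1898 in RahES against 65.6. Uty has an X-linked relative, and whether its probe set also reads that relative was not tested.

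**Figure D5:**
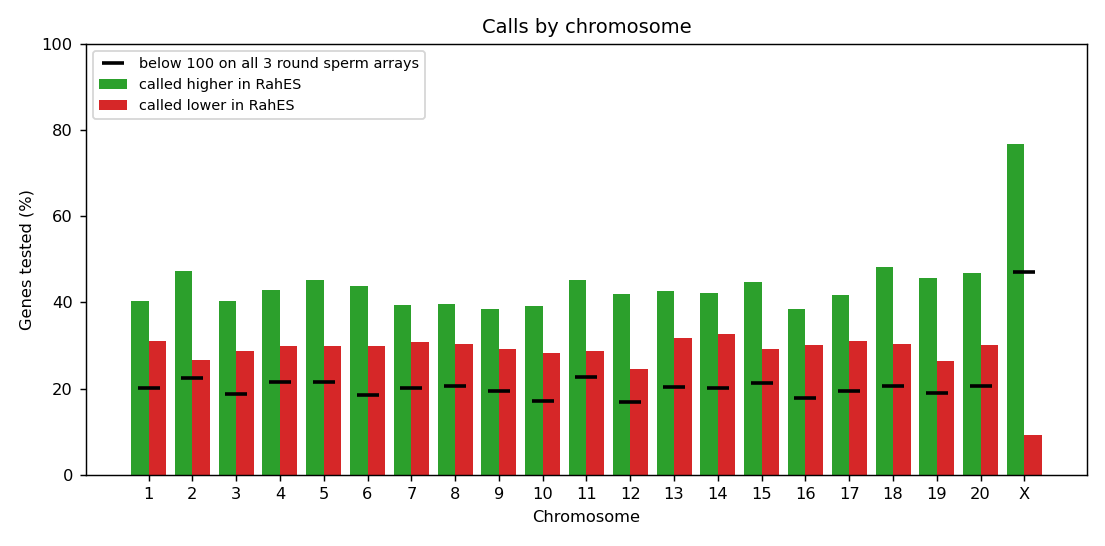
Share of the tested genes of each chromosome that were higher (green) or lower (red) in RahES, with black marks for the share below 100 on all 3 round sperm arrays. The X chromosome has 76.8% higher and 9.29% lower, while the autosomes range from 38.4% to 48.1% higher.

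On the side of the ES cells, 20 of 22 tested naive pluripotency genes were higher in RahES, with a median of 4.72. This was 90.9%, against 43.2% of all tested genes. Sox2 was at least 65.1-fold higher. Sall4, a zinc finger factor, read 5015 to 6293, median 5571, against 3.22, 7.42 and 14.7, and Klf2, a naive state factor, 12923 to 15759, median 14445, against 216, 259.5 and 222. Their groups did not overlap, with Sall4 at least 56.6-fold higher in RahES and a difference of 5.85 ± 0.058 for Klf2. Fbxo15 went the other way, at 190.2 in RahES against 1283, and Klf4, which mouse spermatids also express, at 3901 against 6751, differed by -0.79 ± 0.055 without being called. Pou5f1 and Nanog were not measured here. Further genes below 100 on all round sperm arrays were higher in RahES: the antioxidant enzyme Gpx2 (at least 177-fold), the matrix protein Fn1 (at least 144-fold), the homeobox gene Crxos1 (at least 130.1-fold), the tetraspanin Cd9 (at least 94.3-fold), the flippase subunit Tmem30b (at least 59.7-fold) and the apolipoprotein Apoc1 (at least 46.8-fold). These bounds give no order of the true folds.

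Of 17 tested genes of DNA methylation 14 were higher in RahES (82.4%, against 43.2% of all tested genes), with a median of 2.89. Dnmt1, the maintenance methyltransferase, read 2864 to 3555, median 3250.2, in RahES and 41.6, 35.3 and 54.8 in round sperm samples, at least 32.2-fold apart. Its partner Uhrf1 averaged 2144 against 188, and the oxidases Tet1 and Tet2 808 and 4866 against 13.9 and 531. Trim28, a corepressor that guards imprints, was at similar level, 13273 against 10883. DNA replication genes were higher in 25 of 38 cases (65.8%, against 43.2% of all tested genes), with a median of 2.85. Among them were Mcm2 (4333 against 32.4) and Cdt1 (2944 against 58.5), which license origins.

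Imprinted genes were read because the RahES genome is of sperm origin only. Of 13 tested genes that are expressed from the paternal copy in mice 11 were higher in RahES, with a median of 3.39. This was 84.6%, against 43.2% of all tested genes. The diploid line DA5-3 had a median of 3.22 against round sperm cells for these genes, and 1.18 for the genes of the maternal copy. Nnat averaged 1455 against 20.1, Mest 555 against 12.8 and Igf2 271 against 48.0. Igf2 was far higher in DA5-3, at 2793. Of 20 tested genes expressed from the maternal copy 8 were higher (40%, against 43.2% of all tested genes) and 4 lower (20%, against 28.9%), with a median of 0.97, so the counts lie near or below those of all genes. H19 read 2305 to 4051, median 3072, in RahES and 143, 155 and 138 in round sperm samples, and Meg3 1158 to 1961, median 1502, against a round sperm mean of 213 ± 23.2 (SD, n = 3). Neither gene overlapped between the groups. In DA5-3, H19 averaged 3735 and Meg3 2014. Igf2r averaged 3948 against 82.0. The Igf2 value of RAH-2 replicate 3, 157, was the lowest of the 6.

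Genes shared by the haploid cell kinds were defined by closeness, not by the lack of a significant difference. A gene was at similar level where the 95% confidence interval of its log2 difference lay within 0.5 either way, a 1.41-fold range, and all 9 arrays read at least 200. This held for 656 genes, 6.23% of those tested and 14.3% of the 4585 genes bright enough. Just inside the limit lay Ap4s1, with an interval from 0.16 to 0.50, and just outside Eif3h, from 0.28 to 0.50. The set is tied to the scale of the arrays. After quantile normalization 688 genes met the rule, of which 324 were shared with the set (49.4% of the 656 and 47.1% of the 688). After median centring 660 met it, of which 42 were shared (6.4% of the 656). On all 3 scales 12 genes qualified, among them Becn1, of autophagy, Cdc16, of the anaphase-promoting complex, and the splicing-linked Usp39, named after their values were seen.

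The 12 brightest shared genes are given here. COX2, the mitochondrially encoded oxidase subunit, read 37561, 37948 and 38179 in round sperm samples and 29992 to 34807, median 33023, in RahES. Calm2, a calmodulin gene, read 17482, 17139 and 16823 against 15898 to 18059, median 17028, and Ywhaq, a 14-3-3 protein, 19128, 19989 and 20194 against 18091 to 19791, median 19179. The arrays of the groups interleaved for Calm2 and Ywhaq, while the COX2 values of round sperm samples all lay above those of RahES. The differences were -0.22 ± 0.045, -0.012 ± 0.041 and -0.059 ± 0.035. H2az1, a histone variant found at promoters, read 21862, 21618 and 21589.6 against 26357 to 29697, median 27463, and differed by 0.35 ± 0.04. The ribosomal protein genes Rps29 (0.18 ± 0.059), Rps24 (0.17 ± 0.063), Rpl23a (0.27 ± 0.051) and Rpl41 (0.039 ± 0.051), the cytoplasmic actin gene Actg1 (0.13 ± 0.073), the coactivator Sub1 (-0.087 ± 0.042), the cochaperone Ptges3 (-0.058 ± 0.039) and the adaptor Sdcbp (0.081 ± 0.043) completed the 12 brightest.

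Probe sets of a gene did not always give the same answer. Among the 656 genes, 188 had more than 1 probe set above the filter, and in 87 of them another probe set differed by 1 or more on the log2 scale. A dimmer Actg1 set averaged 3773 in RahES and 151 in round sperm cells, a dimmer Rps24 set 669 and 39.8, and a dimmer Sub1 set 2796 and 21.7. Both sets of Ywhaq stayed close, at -0.059 and 0.023, as did both sets of the histone methyltransferase gene Ezh2, at -0.084 and -0.030, and both sets of the initiation factor gene Eif5a2, at -0.074 and -0.076. Over all tested genes 2649 had several sets above the filter, and in 245 of them 1 set was higher and another lower by at least 1.

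By family, similar levels were counted beside the 6.23% of all tested genes and the 14.3% of genes bright enough for the rule. The shares of mitochondrial ribosomal and RNA polymerase genes below lie near the latter. In the respiratory chain and ATP synthase 18 of 89 tested genes qualified (20.2%), with a median difference of 0.34. In RahES 28 were higher (31.5%, against 43.2% of all tested genes) and 15 lower (16.9%, against 28.9%). Ndufa8, of complex I, read 2938, 2902 and 3474 in round sperm samples and 2930.2 to 3188, median 3041, in RahES, and Atp5pf, of the ATP synthase, 6844, 6560.0 and 6851 against 6294 to 6698, median 6626. The arrays of the groups interleaved for Ndufa8. Among coat and vesicle sorting proteins 15 of 79 qualified (19%), among them Cope (-0.045 ± 0.05) of the COPI coat. Among ubiquitin-conjugating enzymes 7 of 29 qualified (24.1%), among them Ube2j2 (-0.073 ± 0.05). In the proteasome 8 of 46 qualified (17.4%), with Psmc5 at 0.027 ± 0.046 and Psmd2 at 0.041 ± 0.045. The shares were 8 of 49 for translation initiation factors (16.3%, Eif2s2 at -0.074 ± 0.04), 10 of 73 for mitochondrial ribosomal proteins (13.7%, Mrps5 at -0.025 ± 0.058), 4 of 29 for RNA polymerase subunits (13.8%, Polr2l at 0.055 ± 0.053) and 2 of 6 for 14-3-3 proteins (33.3%).

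Further families are given in the same way. Their counts of higher and lower genes stand beside 43.2% higher and 28.9% lower among all tested genes. Of 47 tested cytoplasmic ribosomal protein genes 4 were at similar level (8.51%) and 27 were higher in RahES, with a median of 1.23. Of 68 splicing genes 6 qualified (8.82%) and 45 were higher. Among aminoacyl-tRNA synthetases 3 of 32 qualified (9.38%) and 23 were higher. Of 39 histone demethylases and methyltransferases 3 qualified (7.69%), among them Ezh2 (-0.084 ± 0.046) and Kdm2b (0.032 ± 0.071). Of 20 cytoplasmic dynein and dynactin genes 11 were lower in RahES and 2 were at similar level, the heavy chain Dync1h1 (-0.18 ± 0.049) and Dctn1 (-0.27 ± 0.10). The cytosolic chaperonin gave 7 of 8 subunits within 1 log2 unit, -0.67 for Cct5 to 0.98 for Cct8, while Cct6a differed by 2.30 ± 0.057. After median centring 6 of its subunits were called lower. The order of the families by similar level also turns with the scale: after median centring 13 of 47 cytoplasmic ribosomal protein genes, 11 of 68 splicing genes, 1 of 29 ubiquitin-conjugating enzymes and 7 of 79 coat proteins qualified. The list medians of mitosis, the respiratory chain, ubiquitin-conjugating enzymes, initiation factors, Mediator, coat proteins, kinesins and nuclear pore genes changed sign between the scales, so their direction is not settled.

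Mitosis genes were among those shared. Round spermatids no longer divide. Of 36 tested genes 7 were at similar level (19.4%, against 6.23% of all tested genes and 14.3% of genes bright enough). In RahES 14 were higher (38.9%, against 43.2% of all tested genes) and 8 were lower (22.2%, against 28.9%). Similar level held for 8 of the genes after quantile normalization and for 5 after median centring. Mki67, a marker of cycling cells, averaged 3458 ± 181 in RahES (SD, n = 6) and 3861 ± 455 in round sperm samples (SD, n = 3). Prc1 and Nusap1, of the spindle midzone and the spindle, averaged 4636 and 3200.1 against 5058 and 2947, and the kinases Ttk and Aurkb 3085 and 1717 against 3416 and 2073. Lower in RahES were the B cyclins Ccnb1 (-1.13) and Ccnb2 (-1.30), the kinase Plk1 (-1.44), Kif2c (-2.91) and Foxm1 (-1.81). Higher were Ccna2 (5.33), the motor Kif11 (3.32, with another probe set at 0.05) and Mad2l1 (3.06). In DNA replication, Pcna, the sliding clamp, was at similar level, 12408 against 16379, together with the clamp loader subunits Rfc1 and Rfc2 and with Gins4. These levels stand beside the signals of meiosis genes in the same round sperm samples, and the part of dividing or meiotic cells was not tested.

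Few shared genes were called between the haploid lines and the diploid ES line. Of the 656, 13 differed between RahES and DA5-3 (1.98%, against 6.39% of all tested genes), 10 of them higher and 3 lower in RahES. The rule for similar level picks bright genes with narrow intervals from the same fit, and the RahES arrays enter both comparisons. The smaller share is therefore not read as a result about the shared genes. Pemt, which makes phosphatidylcholine, read 330.4 to 763, median 513, in RahES, 464 to 549 in round sperm samples and 95.1 on average in DA5-3. Bbs7, of the ciliary BBSome, averaged 1739, 1752 and 826 in the same order, and Nucb2, a calcium-binding protein, 452, 404 and 155. The differences from DA5-3 were 2.24 ± 0.14, 1.05 ± 0.11 and 1.46 ± 0.11. The other rises were Slc38a3 (1.72 ± 0.16), Rimbp2 (1.42 ± 0.13), Yipf1 (1.33 ± 0.055), Lypd10 (1.27 ± 0.12), Tmem132c (1.13 ± 0.15), Cyb561a3 (1.08 ± 0.14) and Cep44 (1.03 ± 0.11). Lower in RahES were the lamin gene Lmna (-1.16 ± 0.11), the receptor gene Gabbr1 (-1.05 ± 0.10) and Mvd (-1.02 ± 0.095), of sterol synthesis. By adjusted p (limma), 5 of the 13 also differed between the lines: RAH-6 minus RAH-2 was 1.06 for Slc38a3 (adjusted p = 0.00471), 0.96 for Pemt (0.0048), 0.33 for Yipf1 (0.00867), 0.54 for Lmna (0.0232) and -0.48 for Gabbr1 (0.0287). Slc38a3 was the 1 past the size of 1. It was at similar level only as the mean of the lines: RAH-6 lay 0.52 and RAH-2 -0.54 from round sperm cells. For Pemt these values were 0.43 and -0.53, and for Yipf1 0.53 and 0.20.

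The base composition of start regions was counted for these gene groups. In the 11 windows of spermatid chromatin genes that were lower in RahES the median number of CG dinucleotides in 300 bases was 3, and it was 10 for the acrosome genes and 15 for the tail genes. For all 126 lower genes of the 6 lists, of which 110 had a window, the median was 13, with quartiles of 4.5 and 21.5. Genes at similar level had a median of 22, naive pluripotency genes that were higher had 22, and all tested genes had 21. At least 10 CG dinucleotides were present in 58.8% of windows of the 6 lists, 87.8% of windows of genes at similar level and 80.4% of windows of all tested genes. The full element TGACGTCA stood in 3.05% of windows of the 6 lists, in Tnp1, the lysozyme-like Lyzl6 and a pair of windows of Crem, against 3.19% of windows of tested genes and 4.57% of windows of genes at similar level. These are counts of letters in fixed windows, with no test.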

How the data were processed

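Total RNA of 12 samples (4 groups of 3) was hybridised as biotin-labelled cRNA to 1 array each, per the labels' protocols. The deposited values are log2 MAS5 signals, per the submitters' processing notes, which give no version; that each array was scaled to a 2% trimmed mean of 500 is read from the values. Of 31099 probe sets, 20826 name 1 gene, 436 several, 9780 none and 57 are controls; gene symbols follow the platform annotation, 20764 matched to RefSeq. Signals were rescaled to 500, 16 was added, and the brightest probe set stood for a gene. Genes with a signal of at least 100 on 3 arrays were tested with limma 3.58.1 (R 4.3.3), fitting 4 group means with a trended prior; RahES is the mean of both lines. The script was tested on simulated data. Array precision is limited by the number of arrays. An array quality report was not used, as its array names match no sample label.

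The gene lists and members were chosen with earlier results of these data known. Genes named are the 10 largest rises and falls, up to 4 members of each list by adjusted p, all measured pairs, the 12 brightest at similar level, up to 2 of each family and a looked-up set; further list members were named after their values were seen. Equal replicate numbers did not pair the arrays: the correlation of deviations was -0.0856 to 0.0599 over 18 pairs. Alternatives changed the offset, scaling, filter, probe set rule, prior, arrays fitted, margin, signal limit and replicate block, and left out each array in turn.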

Additional observations from a re-analysis of the deposited data

Results flagged for a closer look

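Among 184 named genes, 13 had 1 RahES array set apart from the other 5, by a gap to its nearest neighbour that exceeded Dixon's critical share of the range for 6 arrays. Chance gives this in about 1 group in 20. Tnp1 read 13.2 in RAH-2 replicate 3, the highest value, against 1.05 to 3.04 in the other 5 arrays, a gap of 0.794 of the range. Crisp2 read 21.4 in RAH-6 replicate 1, the highest value, against 1.00 to 2.67 in the other 5 arrays, a gap of 0.881 of the range. Tnp2 read 13.5 in RAH-6 replicate 2, the highest value, against 2.5 to 4.98 in the other 5 arrays, a gap of 0.732 of the range. Hspa2 read 237 in RAH-2 replicate 1, the lowest value, against 309.8 to 348 in the other 5 arrays, a gap of 0.694 of the range. Myh11 read 25.1 in RAH-6 replicate 3, the lowest value, against 71.6 to 117 in the other 5 arrays, a gap of 0.644 of the range. Hbb read 40.0 in RAH-2 replicate 3, the highest value, against 7.19 to 13.7 in the other 5 arrays, a gap of 0.720 of the range. Ccna1 read 30.9 in RAH-6 replicate 1, the highest value, against 4.13 to 10.5 in the other 5 arrays, a gap of 0.676 of the range. The values of Tnp1, Crisp2, Tnp2, Hbb, Ccna1 and Acr in RahES all lay below 100. Capza1 read 3201 in RAH-6 replicate 2, the highest value, against 2705 to 2847 in the other 5 arrays, a gap of 0.696 of the range. Rps24 read 26745 in RAH-2 replicate 2, the highest value, against 22166 to 23578 in the other 5 arrays, a gap of 0.671 of the range. Psmd2 read 7059 in RAH-6 replicate 1, the lowest value, against 7496 to 7765 in the other 5 arrays, a gap of 0.630 of the range. Acr read 39.7 in RAH-6 replicate 1, the highest value, against 1.66 to 7.2 in the other 5 arrays, a gap of 0.763 of the range. Sycp3 read 2345 in RAH-2 replicate 1, the lowest value, against 2809 to 3052 in the other 5 arrays, a gap of 0.685 of the range. Igf2 read 157 in RAH-2 replicate 3, the lowest value, against 273 to 315 in the other 5 arrays, a gap of 0.790 of the range. All these RahES values remained on their own side of the round sperm values where the gene was called. Between the RahES lines, Tagln, a smooth muscle gene, was higher in RAH-6 by 1.11 ± 0.29 on the log2 scale (limma, adjusted p = 0.035). Its RAH-6 mean was 132, its RAH-2 mean 48.6 and its round sperm mean 3.25. The cause was not tested.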

How the results depend on the processing

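Over 25 alternatives, 128 named calls kept their direction and their side of the threshold, except 5: Prkar2a, Ppp3r1, Cxcl12, Vwf and Xist. Averaging the probe sets of a gene turned Prkar2a to -0.88 and Ppp3r1 to -0.42, and fitting the 9 arrays alone, which chose another probe set, turned Cxcl12 to -0.74. Cxcl12 fell short of the size limit at 0.56 with averaged probe sets, Ppp3r1 at 0.97 with median centring and Xist at 0.92 with an offset of 64. Vwf fell short at 0.76, 0.97 and 0.50 with that offset, quantile normalization and median centring. The number of genes at similar level follows the margin by construction: 1657 at a margin of 1 and 277 at a margin of 0.32. A limit of 500 on the signal left 506. The margins and the signal limit do not enter the calls, and named genes at similar level were not followed under them. Under the other alternatives no named gene at similar level kept that place throughout. Of 53 such genes, 40 kept it under all but quantile normalization and median centring. Leaving out each array in turn gave 4533 to 4582 higher, 3035 to 3053 lower and 604 to 676 at similar level. For RAH-6 it gave 4570 to 4614 higher and 2995 to 3024 lower, and for RAH-2 4520 to 4578 and 3050 to 3090. With the replicate block, 4552 genes were higher, 3044 lower and 653 at similar level; the replicates share only a number, and the block changed no named call. Signals below 100 set a bound on the fold of 3079 called genes. Scaling fixes which genes count as equal, and no external standard for RNA content per cell was used here.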

Other observations

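Of 54 tested heat shock and DnaJ genes 24 were lower in RahES (44.4%, against 28.9% of all tested genes) and 14 were higher (25.9%, against 43.2%). Examples of the lower ones were Hspb9 (50.7 in RahES, 36982 in round sperm cells), Dnajb7 (17.4 in RahES, 16298 in round sperm cells) and Dnajb3 (29.5 in RahES, 17258 in round sperm cells), and of the higher ones Hspa4 (1685 in RahES, 31.2 in round sperm cells), Hspa14 (2107 in RahES, 49.5 in round sperm cells) and the mitochondrial cochaperonin Hspe1 (13332 in RahES, 687 in round sperm cells). Of 16 tubulin genes 8 were higher (50%) and 4 lower (25%) in RahES, near the shares of all tested genes. The beta tubulins Tubb6 (8835 in RahES, 47.0 in round sperm cells) and Tubb5 (13741 in RahES, 97.7 in round sperm cells) were among the higher and the alpha tubulin Tuba8 (94.7 in RahES, 7662 in round sperm cells) and the beta tubulin Tubb1 (43.5 in RahES, 1512 in round sperm cells) among the lower. Tubb5 is often used as a reference gene, as are Tfrc (10795 in RahES, 193 in round sperm cells), Nono (9089 in RahES, 163 in round sperm cells) and Hprt1 (9303 in RahES, 353 in round sperm cells). Of 32 tested housekeeping genes 21 were higher in RahES (65.6%, against 43.2% of all tested genes), 1 was lower and 1 was at similar level.

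In glycolysis 9 of 16 tested genes were higher in RahES (56.25%, against 43.2% of all tested genes) and 2 were lower (12.5%, against 28.9%). The lactate dehydrogenase subunit Ldhb (11112 in RahES, 456 in round sperm cells) and the mutase Pgam1 (20209 in RahES, 990.2 in round sperm cells) were higher, while Pfkm (393 in RahES, 3868 in round sperm cells) was lower. Among V-type proton pump genes 12 of 20 were higher (60%, against 43.2%) and 3 were lower (15%, against 28.9%). The higher ones included the X-linked accessory subunits Atp6ap1 (4216 in RahES, 47.1 in round sperm cells) and Atp6ap2 (8316 in RahES, 143 in round sperm cells).

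Probe sets with no gene name in the annotation used here also leaned to RahES. Of 3720 tested, 2005 were higher (53.9%) and 730 lower (19.6%), with a median log2 difference of 1.22 against 0.59 over named genes.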
